A study of Mus musculus with 28 samples.

Results

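Group 2 innate lymphoid cells (ILC2) sorted from the lungs of mice given papain together with FK506 were compared with ILC2 from untreated mice. The comparison rested on 6 of the 28 libraries of the series, chosen by their labels alone: 3 libraries labelled papain + FK506 and 3 labelled untreated. All animals were wild-type C57BL/6 mice aged 8 weeks. Treated mice received 50 µg of papain through the nose per day, and FK506 by intraperitoneal injection at 0.2 mg per animal per day. FK506 ran for 3 days, paused for 2 days, and ran for another 3 days alongside the papain. The untreated group had neither agent, and the labels name no vehicle for it, so papain and FK506 cannot be told apart in this contrast. The files of replicates 1 and 2 of each group bear the code DK21069 and those of replicate 3 the code DK20129. What the codes stand for is not given, and each group holds both in the same proportion. No source used here says that the libraries of a group came from separate animals, so p-values measure only the spread between these samples, which may be technical.

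ILC2 are tissue-resident lymphocytes without antigen receptors. In the lung they respond to epithelial alarmins (IL-33, IL-25 and TSLP) and are known for making IL-5 and IL-13. Their identity depends on the transcription factors GATA3, RORα and ID2, and they need IL-7 signalling to persist. Papain is a plant cysteine protease that damages airway epithelium and provokes this response. FK506 (tacrolimus) binds FKBP12, and the complex blocks calcineurin, the calcium-dependent phosphatase that sends NFAT transcription factors to the nucleus.

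The 6 libraries were unlike each other before any comparison was made. The deposited values are whole numbers on the scale of CPM (a gene's reads relative to the library's total). Their sums over listed genes ran from 519768 to 547473 in the untreated group and from 589429 to 636598 in the papain + FK506 group. Genes above 0 numbered 7056, 6953 and 4008 in untreated replicates 1, 2 and 3, and 3911, 6649 and 7240 in papain + FK506 replicates 1, 2 and 3. From the spacing of low values, the 4 DK21069 libraries held about 1359000 to 1550000 reads. The spacing gave no clear answer for either replicate 3 library. Across tested genes, untreated replicates 1 and 2 correlated at r = 0.624, whereas untreated replicate 3 reached only 0.315 and 0.340 with them. Papain + FK506 replicate 3 correlated better with untreated replicate 3 (r = 0.408) than with the other libraries of its own group (0.326 and 0.370). Untreated replicate 3 and papain + FK506 replicates 1 and 3 are therefore followed by name through the results below.

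**Figure D1:**
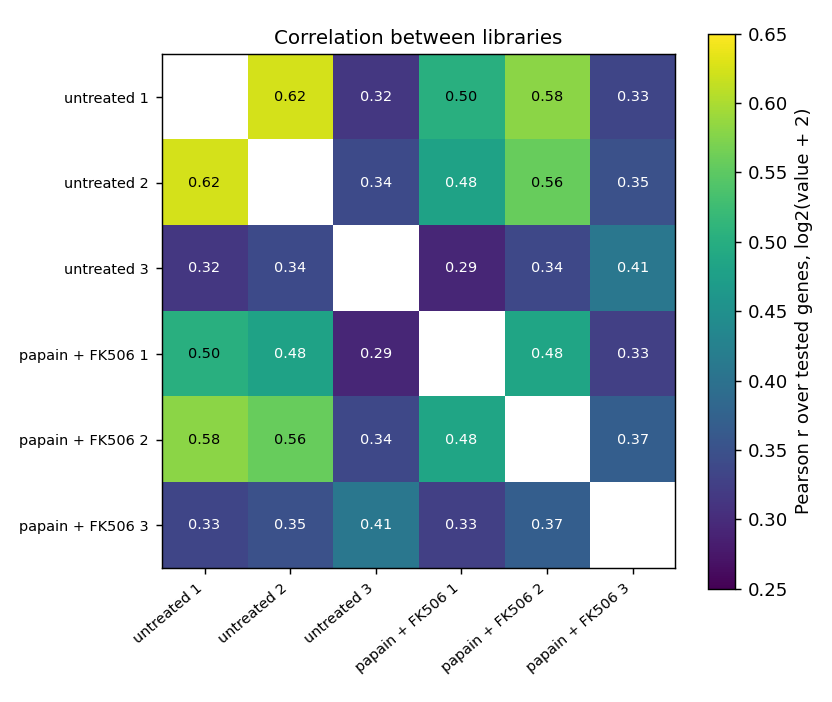
Pearson correlation between each pair of the 6 ILC2 libraries, over tested genes on the log2(value + 2) scale. The highest value is that of untreated replicates 1 and 2 (0.62), and the lowest is that of untreated replicate 3 with papain + FK506 replicate 1 (0.29).

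Markers of the labelled cell type were thinnest in papain + FK506 replicate 3. The summed level of 20 ILC2 transcription factors was 4036, 4615 and 2804 CPM in the untreated libraries and 2765, 3007 and 1086 CPM in the treated ones. That of 33 ILC2 receptors and surface proteins was 6124, 5597 and 2921 CPM against 8527, 6609 and 1787 CPM. Of these 33 genes, 13 were listed at 0 in untreated replicate 3, 18 in papain + FK506 replicate 3 and 3 to 10 in the others. In papain + FK506 replicate 3, Gata3, Il1rl1 (the IL-33 receptor chain), Thy1 and Klrg1 were all listed at 0. That library carried instead 13036 CPM over 20 macrophage, monocyte and dendritic cell genes, against 285 and 512 CPM in the other treated libraries and 288, 440 and 2344 CPM in the untreated ones. Csf1r, the macrophage growth factor receptor, was at 882 CPM there and at 25 CPM or less in the other 5 libraries. MHC class II genes summed to 17745 CPM in that library, to 345 and 62 CPM in the other treated ones, and to 98, 228 and 1193 CPM in the untreated ones. Untreated replicate 3 stood out for airway epithelial genes, at 38931 CPM against 0 to 270 CPM elsewhere, of which the club cell gene Scgb1a1 made up 24968 CPM. It also held 2979 CPM of neutrophil genes, against 0 to 308 CPM in the other libraries. Alveolar type 2 cell genes summed to 5060 CPM in untreated replicate 3 and to 4380 CPM in papain + FK506 replicate 3, against 0 to 641 CPM in the others. Fibroblast and smooth muscle genes reached 3835 and 1075 CPM in these libraries and endothelial genes 1644 and 436 CPM, against at most 360 and 151 CPM elsewhere. T cell genes summed to 623, 285 and 119 CPM in the untreated libraries and to 1404, 867 and 48 CPM in the treated ones. Cd3e was listed at 81, 0 and 0 CPM and at 251, 67 and 0 CPM in the same order. Of 14 basophil, mast cell and eosinophil markers, 10 were listed at 0 in all 6 libraries. In bulk RNA, fewer cells of a type and less RNA per cell cannot be told apart, and the part of these other cells in each result was not tested.

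**Figure D2:**
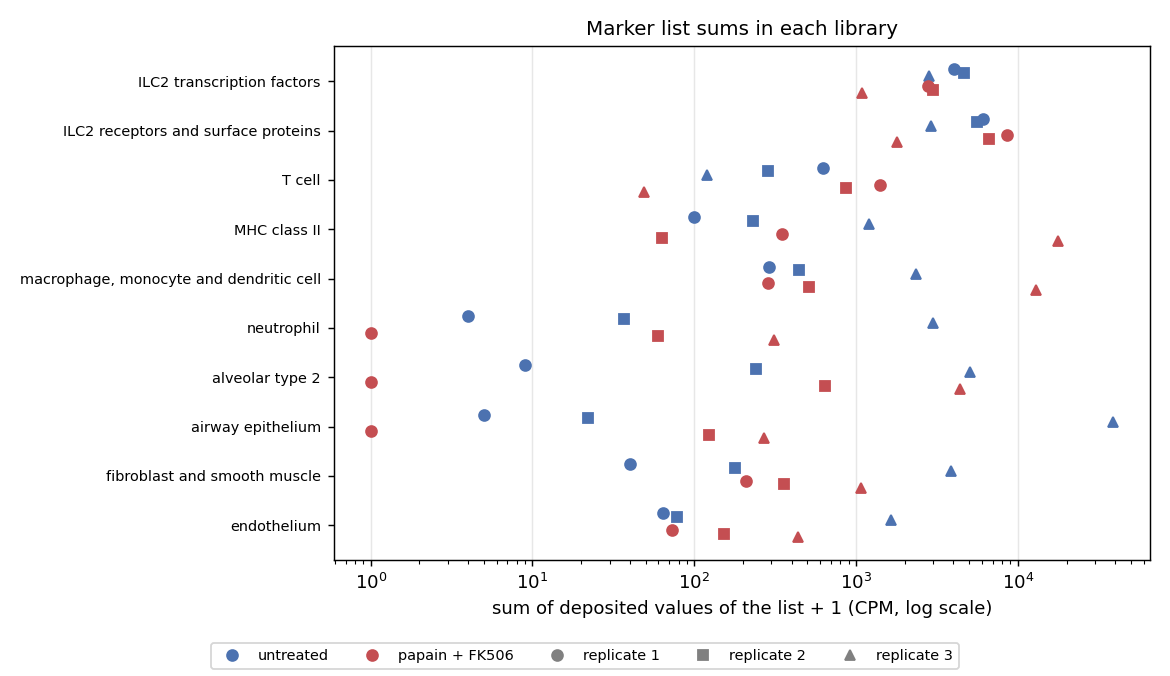
Summed deposited values (CPM plus 1, log axis) of 10 marker lists in each library; colour gives the group and shape the replicate. Papain + FK506 replicate 3 is lowest for both ILC2 lists and highest for MHC class II and macrophage genes, and untreated replicate 3 is highest for airway epithelial genes.

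No gene passed the test between papain + FK506 and untreated. With limma on log2 values and the file code as a term, 0 of 6271 genes tested (0.0%) reached an adjusted p under 0.05. Before adjustment, 250 genes (3.99%) had p under 0.05, of which 124 (1.98%) stood higher and 126 (2.01%) lower with treatment. The median log2 difference over all genes was -0.01, the median absolute difference 0.99 and the median standard error (SE) 1.6, so a typical gene differed by less than its own error. Precision was better for the 1221 genes (19.5%) at 10 CPM or more in all 6 libraries, whose median SE was 1.0 and median absolute difference 0.49. Among those, 39 had an unadjusted p under 0.05.

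Genes whose 3 treated libraries all lay above or all below the 3 untreated ones numbered 487 (7.77%), with 245 higher (3.91%) and 242 lower (3.86%). On the values as deposited, without scaling factors, the split was 320 higher and 203 lower, so that the share of higher genes moved from 50.3 to 61.2%. Zeros in single libraries stood behind many of them. Untreated replicate 3 was listed at 0 for 153 of the 245 higher genes (62.4%). Papain + FK506 replicate 1 was listed at 0 for 135 of the 242 lower genes (55.8%), and replicate 3 for 74 of them (30.6%). Only 61 of the higher and 53 of the lower genes were at 10 CPM or more in all 6 libraries.

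**Figure D3:**
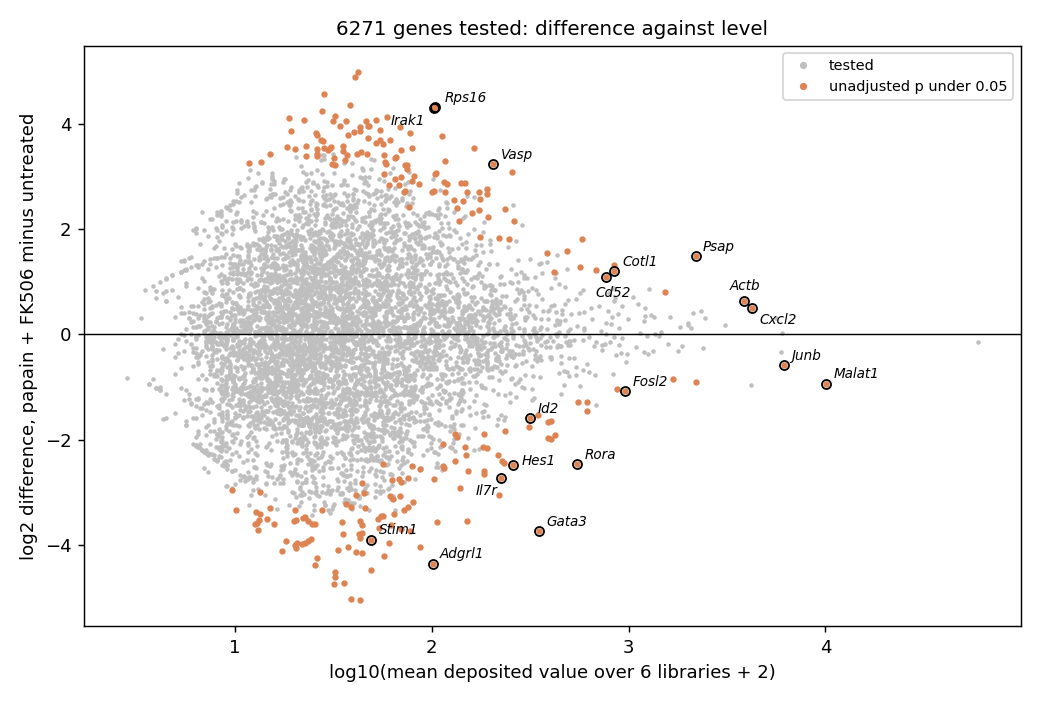
Log2 difference (papain + FK506 minus untreated) of 6271 genes against the log10 of their mean deposited value over the 6 libraries. Coloured points have an unadjusted p under 0.05, none of them passed after adjustment, and the abundant RNAs Malat1 and Junb differ by -0.94 and -0.59.

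Among 18 tested ILC2 transcription factors, 4 had an unadjusted p under 0.05, all of them lower with papain + FK506 (as were 2.01% of all tested genes): Gata3, Rora, Id2 and Ets1. In all, 13 lay below 0 and 5 above, where 49.7% of all tested genes lay above 0. The median log2 difference of the list was -0.91, beside -0.01 over all genes. It was -0.97 within DK21069 and -0.33 within DK20129, beside -0.54 and 0.93 over all genes. Gata3 (chromosome 2, 9857078 to 9890034, GRCm38, minus strand) encodes the factor that specifies the type 2 programme. It read 391, 807 and 440 CPM without treatment and 315, 145 and 0 CPM with papain + FK506. Every treated library lay below every untreated one, although 315 and 391 CPM are close. The log2 difference was -3.74 (SE 0.93, limma adjusted p = 0.431). Without papain + FK506 replicate 3, where the gene was listed at 0, the difference was -2.07 (adjusted p = 0.689), and without both replicate 3 libraries it was -1.79. Gata3, Rora and Psap passed the threshold only under a robust variance fit, 1 of 22 alternatives.

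Rora (chromosome 9, 68653786 to 69388246, plus strand) encodes RORα, which ILC2 need to develop. Its values were 892, 1015 and 418 CPM in untreated libraries and 314, 627 and 15 CPM in treated ones. The groups overlapped, since papain + FK506 replicate 2 lay above untreated replicate 3. Within DK21069 both untreated values were above both treated ones, and within DK20129 the only untreated value was above the only treated one. The log2 difference was -2.47 (SE 0.61, adjusted p = 0.431) and -1.37 without papain + FK506 replicate 3. Id2, the inhibitor of E proteins that all innate lymphoid cells require, read 649, 581 and 150 CPM against 129, 311 and 74 CPM. Its difference of -1.59 (SE 0.64, adjusted p = 0.982) was -2.01 within DK21069 and -0.76 within DK20129. It was -1.75 without papain + FK506 replicate 3 and -1.05 without replicate 1.

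Ets1, which supports ILC2 expansion, was at 335, 322 and 154 CPM against 304, 276 and 0 CPM; its difference of -2.44 (SE 0.96) was -1.08 without papain + FK506 replicate 3 and -1.07 without untreated replicate 3. Bcl11b, which restrains alternative fates, read 281, 340 and 104 CPM against 206, 265 and 29 CPM. Lmo4 was the only other member whose groups did not overlap after scaling (3.86% of all tested genes stood lower without overlap). It read 637, 766 and 933 CPM against 809, 604 and 276 CPM as deposited, where the groups do overlap. Runx3 stood at 206, 143 and 76 CPM against 237, 167 and 160 CPM, with a difference of 0.30 (SE 1.04).

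**Figure D4:**
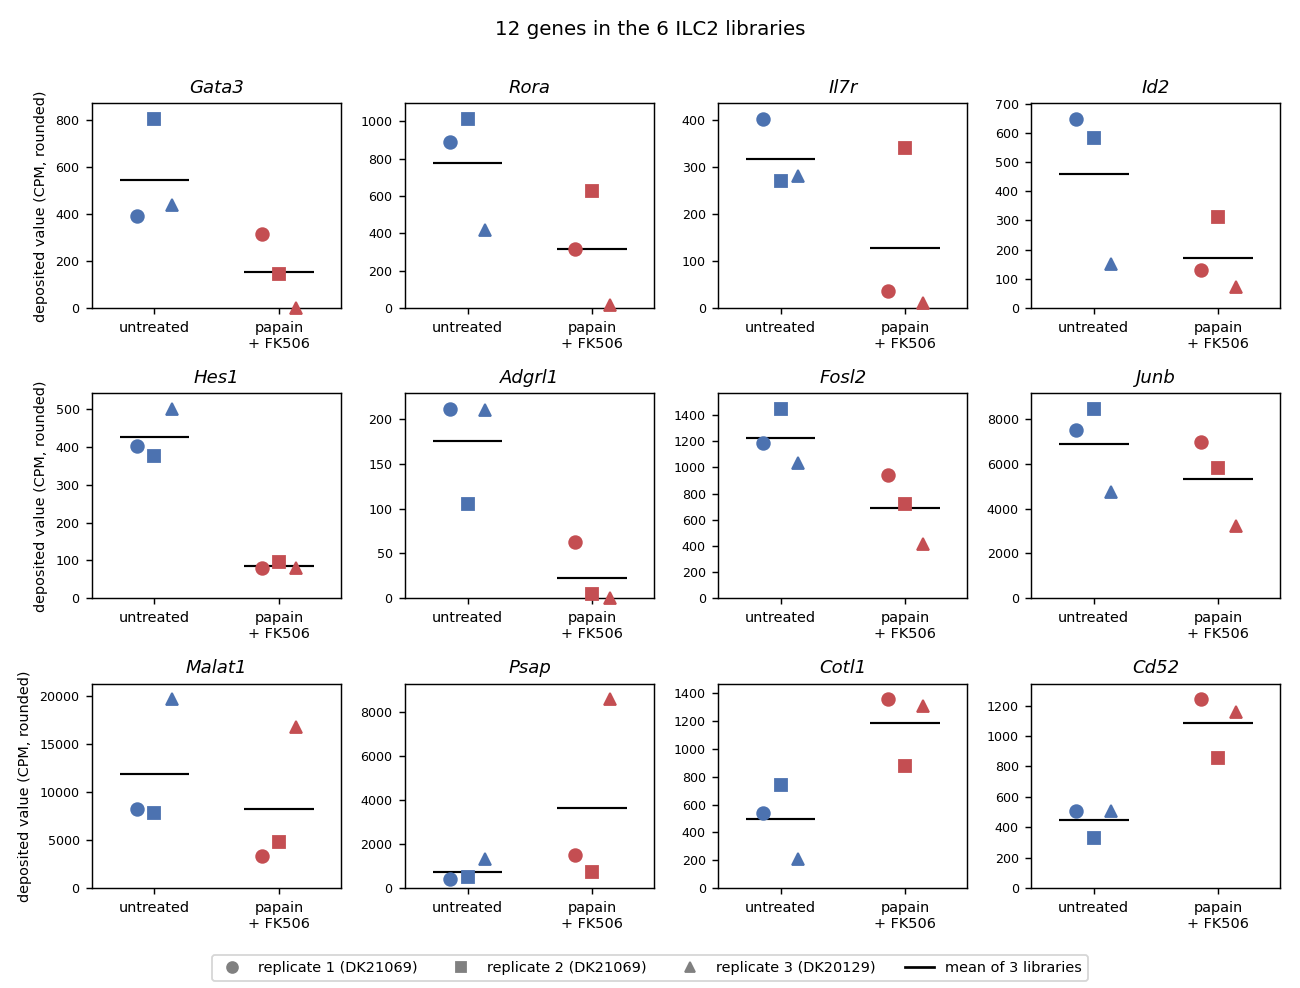
Deposited values (CPM, linear axes from 0) of 12 genes in the 3 untreated and 3 papain + FK506 libraries; shapes mark replicates and bars the mean of 3. Gata3, Hes1, Adgrl1, Fosl2, Cd52 and Cotl1 separate the groups in all libraries, while Rora, Il7r, Id2, Junb, Malat1 and Psap overlap.

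The surface receptors gave a mixed picture. Among 28 tested ILC2 receptors and surface proteins, 3 stood lower (Il7r, Thy1 and Il1rl1) and 1 higher (Crlf2) at an unadjusted p under 0.05. Over all tested genes, 2.01% stood lower and 1.98% higher at that level. Of the 28 members, 22 lay below 0 and 6 above, where 49.7% of all tested genes lay above 0. The median of the list was -0.80, beside -0.01 over all genes. The median was -0.38 within DK21069 and 0.00 within DK20129, beside -0.54 and 0.93 over all genes. Within DK21069 the list thus stood above the median of all genes. Il2ra, Il17rb, Vipr2, Ccr8, Tnfrsf9, Ctla4, Il9r and Itgae were listed at 0 in both replicate 3 libraries. Members without values there hold the DK20129 median at 0.00, so it gives no direction. Over all tested genes, 11.2% were listed at 0 in both. Il7r (chromosome 15, 9505788 to 9530176, minus strand), the IL-7 receptor chain, was at 403, 271 and 280 CPM in untreated libraries. It read 36, 340 and 10 CPM in treated ones. Papain + FK506 replicates 1 and 3 were thus far below every untreated library, and replicate 2 was within their range. The log2 difference was -2.74 (SE 0.81, adjusted p = 0.982) and -1.77 without papain + FK506 replicate 3.

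Il1rl1, which receives IL-33, was at 264, 383 and 44 CPM against 316, 130 and 0 CPM. Its difference of -2.16 (SE 1.02) became -0.49 without papain + FK506 replicate 3. Thy1, a pan-ILC2 surface marker, read 532, 492 and 111 CPM against 798, 476 and 0 CPM. Its difference of -1.98 (SE 0.85) became -0.31 without that library, so the estimate rested on the library with the lowest ILC2 marker sums. Klrg1, a marker of mature and activated ILC2, read 43, 216 and 219 CPM against 550, 123 and 0 CPM, and its sign turned with the same library, from -1.54 to 0.82. Icos, a costimulatory receptor, read 495, 469 and 11 CPM against 492, 655 and 24 CPM (difference 0.29, SE 0.78), with the sign turned without untreated replicate 3 (-0.88).

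Crlf2, the TSLP receptor chain, was the receptor that stood higher. It was at 146, 79 and 19 CPM in untreated libraries and at 339, 205 and 253 CPM in treated ones, with no overlap. The difference was 1.86 (SE 0.82, adjusted p = 0.982), 1.35 without papain + FK506 replicate 3 and 0.83 without untreated replicate 3. Il2rg, the common gamma chain, read 833, 844 and 220 CPM against 2042, 1036 and 96 CPM (difference -0.06, SE 0.45). The activation marker Cd69 stood at 118, 102 and 57 CPM against 41, 29 and 4 CPM. Its groups did not overlap, and its difference was -2.37 (SE 1.36). Ptgdr2 and Tnfrsf4 were listed at 0 in all 6 libraries.

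Promoter sequences of 3 of these genes are shown because Gata3, Rora and Il7r were the transcription factor and receptor genes with the smallest p-values of their lists, and because NFAT, the target of the calcineurin pathway, binds a short motif that can be searched. Each runs from 250 bases before to 50 bases after the start of the gene, 5′ to 3′ on the gene's strand, from RefSeq on GRCm38.p6. Gata3 is chr2:9878551-9878850 (minus strand), Rora chr9:68653536-68653835 (plus strand) and Il7r chr15:9529827-9530126 (minus strand). The Gata3 and Il7r starts in RefSeq, and their whole windows, lie inside the longer GENCODE spans given above. Capitals mark GGAAAA, the NFAT core, on either strand.
Gata3: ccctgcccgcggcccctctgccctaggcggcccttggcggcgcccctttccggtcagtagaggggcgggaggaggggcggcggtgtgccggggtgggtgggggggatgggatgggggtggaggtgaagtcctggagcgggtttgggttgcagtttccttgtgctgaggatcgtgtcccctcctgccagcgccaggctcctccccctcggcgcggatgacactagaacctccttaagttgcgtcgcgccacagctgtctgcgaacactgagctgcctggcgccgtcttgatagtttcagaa
Rora: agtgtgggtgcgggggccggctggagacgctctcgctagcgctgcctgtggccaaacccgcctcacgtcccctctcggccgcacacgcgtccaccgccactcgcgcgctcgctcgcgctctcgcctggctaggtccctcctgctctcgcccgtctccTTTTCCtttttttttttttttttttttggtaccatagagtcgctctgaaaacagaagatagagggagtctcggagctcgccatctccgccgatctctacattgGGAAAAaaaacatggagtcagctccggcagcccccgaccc
Il7r: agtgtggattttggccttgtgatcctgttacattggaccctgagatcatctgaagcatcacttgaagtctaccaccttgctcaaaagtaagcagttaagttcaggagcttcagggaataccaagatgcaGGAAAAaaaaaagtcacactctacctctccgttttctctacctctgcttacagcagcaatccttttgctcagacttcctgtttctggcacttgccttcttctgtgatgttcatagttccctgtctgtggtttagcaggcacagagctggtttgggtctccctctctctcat
The Rora window held 2 matches and the Il7r window 1, while the Gata3 window held none. No window held the AP-1 motif TGANTCA or the GATA-factor motif AGATAA on either strand. GGAAAA occurred in promoters of 26.1% of all 27025 genes of the table, TGANTCA in those of 8.97% and AGATAA in those of 12.7%. Among the 4914 tested genes in the table, the shares were 23.6%, 5.78% and 7.57%. Among the 12 genes named below as higher, 10 were in the table and 3 of these held GGAAAA. Among the 12 named as lower, 9 were in the table and 2 held it. A match of this length describes only the letters in the window.

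Type 2 cytokines and other effectors showed no direction. Of 27 such genes 17 were tested, none had an unadjusted p under 0.05, and 10 lay above 0 and 7 below (median 0.26). Il13, which drives mucus secretion and airway constriction, was at 30, 56 and 0 CPM in untreated libraries and at 77, 68 and 0 CPM in treated ones. The difference was 0.26 (SE 1.31), well inside its error. Il5, the eosinophil growth factor, read 33, 14 and 0 CPM against 141, 15 and 0 CPM (difference 0.44, SE 1.64). Both cytokines were listed at 0 in both replicate 3 libraries. In the ILC2 libraries from mice given papain alone, which were compared with the same untreated libraries, Il13 was at 386, 182 and 66 CPM and Il5 at 65, 45 and 0 CPM.

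Areg, the tissue repair factor amphiregulin, stood at 71, 176 and 64 CPM against 231, 235 and 36 CPM (difference 0.24, SE 0.84). Within DK21069 both treated values were above both untreated ones, and within DK20129 the treated value was below. Csf2, which encodes GM-CSF, read 17, 31 and 0 CPM against 0, 22 and 0 CPM. Lif, an IL-6 family cytokine, was the only effector whose groups did not overlap (3.91% of all tested genes stood higher without overlap). It was at 7, 1 and 0 CPM against 90, 43 and 17 CPM. Its difference was 3.34 (SE 1.75, adjusted p = 0.982), and 2.23 without untreated replicate 3. Arg1, the arginase of ILC2 and of alternatively activated macrophages, was at 128, 361 and 1 CPM against 452, 31 and 475 CPM. Il4, Il9, Il3 and Penk were listed at 0 in all 6 libraries.

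Members of the calcineurin pathway, the target of FK506, went both ways. Of 21 tested genes of the calcineurin, NFAT and NR4A list, 9 lay above 0 and 12 below, with a median of -0.10. The median was -0.75 within DK21069 and 1.01 within DK20129, beside -0.54 and 0.93 over all genes. In all, 1 stood lower and 1 higher at an unadjusted p under 0.05. Over all tested genes, the shares at that level were 2.01% lower and 1.98% higher. The lower gene, Stim1, and the higher one, Orai1, both belong to store-operated calcium entry. STIM1 senses calcium in the endoplasmic reticulum and ORAI1 forms the channel it opens. Stim1 was at 58, 68 and 134 CPM in untreated libraries and at 0, 23 and 2 CPM in treated ones, without overlap (difference -3.91, SE 1.43, adjusted p = 0.982). It remained at -3.89 without papain + FK506 replicate 3 and at -2.87 without replicate 1. Orai1 read 162, 9 and 0 CPM against 163, 119 and 170 CPM. Untreated replicate 1 lay among the treated libraries. The difference was 3.07 (SE 1.40), 1.21 without papain + FK506 replicate 3 and 2.31 without untreated replicate 3.

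Ppp3ca, a catalytic subunit of calcineurin, read 134, 124 and 513 CPM against 79, 35 and 210 CPM. It was lower with treatment within each code, by -1.66 and -1.03 (fitted difference -1.45, SE 0.85, adjusted p = 0.982), yet papain + FK506 replicate 3 lay above untreated replicates 1 and 2. Nfatc1 was at 50, 97 and 0 CPM against 12, 78 and 96 CPM, and Nfatc2 at 58, 52 and 89 CPM against 42, 43 and 0 CPM. Nfatc3 read 249, 91 and 54 CPM against 0, 131 and 61 CPM, a difference that rested on papain + FK506 replicate 1 (-2.16 with it, -0.04 without). The calcineurin inhibitor Rcan1, which NFAT induces in many cells, was at 0, 7 and 17 CPM against 0, 0 and 72 CPM, too low to compare. Nr4a1, an orphan nuclear receptor induced by calcium signals, stood at 615, 458 and 1259 CPM against 459, 667 and 928 CPM (difference -0.30, SE 0.47).

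None of the 7 tested FK506-binding proteins had an unadjusted p under 0.05, and 5 of them lay above 0. Fkbp1a, which encodes FKBP12, was at 61, 99 and 132 CPM in untreated libraries and at 100, 165 and 193 CPM in treated ones. The groups overlapped, with the treated mean above the untreated one within each code (difference 0.47, SE 0.78, adjusted p = 0.999). Fkbp5, a cochaperone induced by glucocorticoids, read 40, 39 and 190 CPM against 1, 55 and 49 CPM (difference -1.85, SE 1.5, and -0.77 without papain + FK506 replicate 1).

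Of 26 tested AP-1 and immediate early genes, 19 lay below 0, 5 stood lower at an unadjusted p under 0.05 (Junb, Gadd45b, Fosl2, Btg1 and Csrnp1) and 1 stood higher (Dusp2), where the shares over all tested genes were 2.01% lower and 1.98% higher. The median was -0.33, with -0.68 within DK21069 and 0.32 within DK20129, beside -0.54 and 0.93 over all genes. Fosl2, an AP-1 subunit, was at 1188, 1450 and 1037 CPM in untreated libraries and at 944, 720 and 411 CPM in treated ones. All 3 treated values lay below all 3 untreated ones. The difference was -1.08 (SE 0.45, adjusted p = 0.982), and it was -1.08 within DK21069 and -1.08 within DK20129. Junb, an AP-1 subunit, read 7535, 8482 and 4736 CPM against 7004, 5809 and 3244 CPM. Its difference of -0.59 had a small error (SE 0.16, adjusted p = 0.922), was -0.83 without papain + FK506 replicate 3 and -0.43 without replicate 1.

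Gadd45b, induced by stress and growth arrest, read 925, 1277 and 358 CPM against 423, 547 and 131 CPM, lower within both codes (difference -1.45, SE 0.51, adjusted p = 0.982). Btg1, an antiproliferative gene of resting lymphocytes, ranged from 461 to 793 CPM without treatment and read 68, 558 and 128 CPM with it, with papain + FK506 replicate 2 inside the untreated range. Without papain + FK506 replicate 1 its difference shrank from -1.92 to -0.63. Csrnp1 was at 602, 447 and 275 CPM against 46, 200 and 290 CPM. Fos and Jun did not show the pattern of Fosl2. Fos read 420, 481 and 371 CPM against 265, 380 and 666 CPM, and Jun 961, 1311 and 1493 CPM against 1042, 991 and 1356 CPM.

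Among 17 NF-kB subunits and feedback genes, 3 stood lower at an unadjusted p under 0.05 (2.01% over all genes) and none higher, and 9 lay below 0. The median was -0.32, with -1.05 within DK21069 and 0.52 within DK20129, beside -0.54 and 0.93 over all genes. After scaling, the groups of 3 lower members and 1 higher member did not overlap (3.86% and 3.91% over all tested genes). The higher one was the subunit gene Rel, at 0, 10 and 0 CPM against 31, 22 and 18 CPM (difference 2.67, SE 1.66). Relb, the noncanonical subunit, was at 19, 54 and 132 CPM against 0, 8 and 8 CPM, without overlap (difference -3.28, SE 1.5, adjusted p = 0.982). Tnfaip3, which encodes the feedback inhibitor A20, read 137, 139 and 312 CPM against 1, 146 and 146 CPM, and its difference of -2.29 shrank to -0.41 without papain + FK506 replicate 1. Bcl3 stood at 42, 68 and 83 CPM against 7, 0 and 37 CPM. Nfkbia, the inhibitor IκBα, was at 8103, 7947 and 3131 CPM against 7875, 4960 and 3785 CPM (difference -0.34, SE 0.18). It went opposite ways in the 2 codes (-0.77 within DK21069 and 0.52 within DK20129), and was -0.76 without untreated replicate 3 and -0.63 without papain + FK506 replicate 3.

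Hes1 stood lower in every treated library and by a similar amount within both codes. It encodes a repressor best known as a Notch target, and lies on chromosome 16 (30064384 to 30067796, plus strand). It was at 403, 377 and 502 CPM in untreated libraries and at 81, 96 and 80 CPM in treated ones. The highest treated library was thus far below the lowest untreated one. The difference was -2.48 (SE 0.76, adjusted p = 0.982), with -2.53 within DK21069 and -2.38 within DK20129, and it ranged from -2.91 to -2.17 when untreated replicate 3, papain + FK506 replicate 1 or replicate 3 was left out. With papain alone, Hes1 was at 102, 84 and 595 CPM, low in the DK21069 libraries and high in the DK20129 one.

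Hes1 and Gata3 were among the 12 lower genes named for the smallest p-values with groups that do not overlap, the same direction within both codes and a mean of at least 20 CPM. Adgrl1, the adhesion receptor latrophilin 1, read 212, 105 and 210 CPM against 63, 5 and 0 CPM (difference -4.36, SE 1.23, adjusted p = 0.982), and -3.66 without papain + FK506 replicate 3. Zcchc7, part of a nuclear RNA surveillance complex, stood at 174, 129 and 239 CPM against 0, 55 and 32 CPM. Golm1, a Golgi membrane protein, read 75, 118 and 264 CPM against 0, 52 and 4 CPM. Further members were lower still: Tcf7l1, Cnnm2 and Trak2 were listed at 0 in all treated libraries, Slc35a4 at 0, 2 and 0 CPM and Thada at 0, 0 and 3 CPM. Of the 12 genes with Stim1 included, 8 were listed at 0 in papain + FK506 replicate 1 and 7 in replicate 3.

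Cd52 was among the 12 higher genes chosen in the same way. It encodes a small GPI-anchored glycoprotein of lymphocytes and lies on chromosome 4 (134082448 to 134095082, minus strand). Its values were 508, 332 and 507 CPM in untreated libraries and 1245, 857 and 1155 CPM in treated ones. The difference was 1.09 (SE 0.40, adjusted p = 0.982), 0.92 within DK21069 and 1.43 within DK20129. It was 0.98 without papain + FK506 replicate 3. Cotl1, an F-actin binding protein, read 540, 737 and 213 CPM against 1359, 879 and 1306 CPM. Its difference of 1.2 (SE 0.43) was 0.51 without papain + FK506 replicate 3 and 0.60 without untreated replicate 3.

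Other actin regulators were on this list too. Vasp, which extends actin filaments, was at 110, 107 and 0 CPM against 485, 273 and 248 CPM, and Arpc4, a subunit of the Arp2/3 complex, at 106, 154 and 1 CPM against 428, 235 and 206 CPM. Cox7b and Ndufb5, subunits of the respiratory chain, read 126, 91 and 3 CPM against 369, 252 and 209 CPM, and 86, 93 and 0 CPM against 327, 151 and 215 CPM. Without untreated replicate 3, the difference fell from 3.2 to 2.3 for Vasp and from 2.7 to 0.9 for Arpc4. It fell from 2.6 to 1.2 for Cox7b and from 2.9 to 0.7 for Ndufb5. Actin and respiratory chain genes were not examined as lists. Irak1, a kinase shared by IL-33 and Toll-like receptor signalling, stood at 11, 13 and 0 CPM against 357, 108 and 116 CPM (difference 4.30, SE 1.44, adjusted p = 0.982). Its difference was 2.71 without untreated replicate 3 and 1.84 without that library and papain + FK506 replicate 1. Sh3bp5 was at 67, 24 and 2 CPM against 510, 203 and 165 CPM. Rps16, a ribosomal protein gene, read 14, 11 and 0 CPM against 281, 76 and 233 CPM, but near-identical copies exist and how shared reads were counted is not given, so its values are uncertain. Inpp1, Wdr74 and Mrpl22 were listed at 0 in all untreated libraries and at 157, 53 and 24 CPM, at 159, 55 and 28 CPM, and at 75, 22 and 62 CPM in treated ones. Untreated replicate 3 was the lowest library for 8 of the 12 and was listed at 0 for 7.

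The smallest p-value of all belonged to Malat1, an abundant noncoding RNA that stays in the nucleus (chromosome 19, 5795690 to 5802672, minus strand). It was at 8235, 7841 and 19699 CPM in untreated libraries and at 3358, 4794 and 16711 CPM in treated ones. The groups overlapped because both replicate 3 libraries were high. The log2 difference was -0.94 (SE 0.20, adjusted p = 0.214), made up of -1.41 within DK21069 and 0.01 within DK20129. It was -0.45 without papain + FK506 replicate 1 and -1.49 without replicate 3. Malat1 passed the threshold under 4 of the 22 alternatives, which changed the scaling, raised the value added before the log, or left out the ribosomal RNA gene Rn45s. Under the robust variance fit, its limma p rose to 0.118 (adjusted p = 0.999), so its small p-value depended on how the spread was estimated. Kcnq1ot1, another nuclear RNA, read 91, 64 and 354 CPM against 0, 74 and 88 CPM. Neat1, the scaffold of paraspeckles, stood at 175, 247 and 114 CPM against 276, 240 and 256 CPM (difference 0.40, SE 1.0).

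Of 20 tested genes of lysosomal proteins, 4 stood higher at an unadjusted p under 0.05 and none lower (Psap, Npc2, Ctsd and Lamp1), where 1.98% of all tested genes stood higher. In all, 13 lay above 0 (49.7% over all genes), and the median was 0.31. Within DK21069 the median was -0.29 and within DK20129 it was 2.13 (-0.54 and 0.93 over all genes), beside the macrophage and MHC class II sums of papain + FK506 replicate 3. Psap, the precursor of the saposins, was at 428, 522 and 1318 CPM against 1522, 749 and 8602 CPM (difference 1.49, SE 0.40, adjusted p = 0.860). It was 0.72 without that library. The only member whose groups did not overlap (3.91% of all tested genes stood higher without overlap) was Npc2, a cholesterol carrier of the lysosome. Npc2 read 258, 276 and 272 CPM against 521, 526 and 1520 CPM. Its difference of 1.28 (SE 0.53) was 0.58 without that library, where the treated libraries still read 521 and 526 CPM. Cxcl2, a neutrophil-attracting chemokine also made by macrophages, stood at 1419, 1823 and 6063 CPM against 3411, 1801 and 11009 CPM (difference 0.51, SE 0.25, adjusted p = 0.982), with 0.26 without papain + FK506 replicate 3 and 0.25 without untreated replicate 3.

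The remaining lists held few low p-values. Among 17 tested JAK, STAT and SOCS genes, 1 stood higher at an unadjusted p under 0.05, as did 1.98% of all tested genes. It was the phosphatase gene Ptpn6, at 33, 29 and 0 CPM against 164, 94 and 79 CPM. Among 21 genes of the unfolded protein and heat shock responses, 1 also stood higher at that level. This was the disulfide isomerase gene Pdia6, at 6, 53 and 0 CPM against 89, 116 and 203 CPM. Lists of 13 Pim and BCL-2 family genes, 20 cell cycle genes, 12 glycolytic genes, 8 interferon response genes and 9 glucocorticoid-type targets held no such gene. The survival kinase Pim1 read 1747, 1570 and 479 CPM against 1197, 1213 and 1260 CPM. The proliferation marker Mki67 was at 25, 1 and 0 CPM in untreated libraries and listed at 0 in all treated ones.

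Within file code DK21069, where each group has 2 libraries, 0 of 5249 genes passed (0.0%) by limma, with 392 at an unadjusted p under 0.05 (7.47%). Of these, 321 stood lower (6.12%) and 71 higher (1.35%). Within DK20129 there is 1 library a group and therefore no test. The median log2 difference was -0.54 within DK21069 and 0.93 within DK20129, in opposite directions. The libraries listing most zeros belong to different groups in the 2 codes: papain + FK506 replicate 1 was listed at 0 for 2774 tested genes and untreated replicate 3 for 2965. The differences in the 2 codes were almost unrelated across genes, which are not independent replicates: r = 0.02 over 6271 genes and r = 0.04 over the 1221 genes at 10 CPM or more in all 6 libraries. Directions matched for 2517 genes (40.1%), while 701 genes (11.2%) were listed at 0 in both DK20129 libraries and had no direction there. Gata3, Rora, Id2, Il7r, Hes1, Fosl2, Junb and Gadd45b were lower, and Cd52, Crlf2 and Npc2 higher, within both codes. Malat1, Klrg1, Arg1 and the MHC class II gene H2-Aa were not. The rule that named Gata3, Hes1 and Cd52 asked for the same direction within both codes. The other genes that matched were among the smallest p-values of their lists in the fit of both codes. Their matching directions therefore follow in part from how they were chosen.

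**Figure D5:**
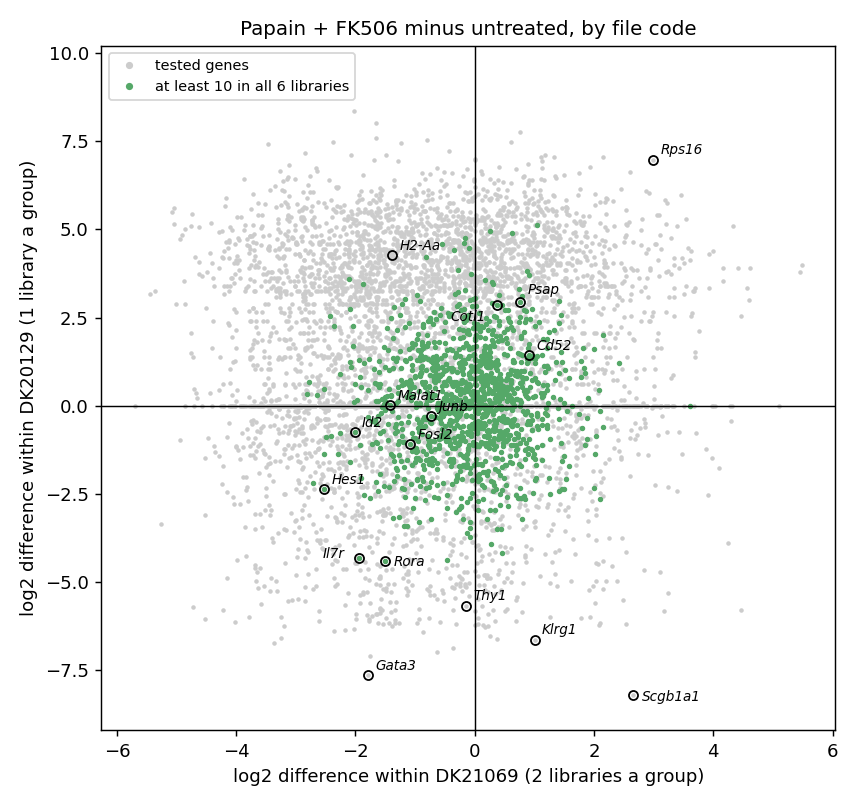
Log2 difference (papain + FK506 minus untreated) within file code DK20129 against that within DK21069 for 6271 tested genes, with genes at 10 CPM or more in all 6 libraries in green. The cloud has no slope (r = 0.02), points on the horizontal line are genes listed at 0 in both DK20129 libraries or level there, and Hes1, Rora and Il7r lie in the lower left quadrant.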

How the data were processed

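RNA of ILC2 sorted by flow cytometry was read at transcript 3' ends from 10 ng of total RNA, according to the labels' protocols. STAR 2.7.0c, featureCounts 1.6.0, mm10 and GRCm38.p6 are listed in the submitters' processing notes without further detail. Per the values, the authors deposited a score: CPM rounded to whole numbers. Their denominator, the strand setting and the treatment of shared reads are not stated. Gapdh, used by all cells, read 0 in 3 of the 6 libraries, so a 0 is only a listing, and groups at 0 get no fold. The replicate 3 tables gave no value for 27 gene names, which were not tested.

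Genes at 10 CPM or more in at least 3 of the 9 ILC2 libraries were tested. Values were divided by trimmed mean of M values (TMM) factors computed for this work, 2 was added, and log2 values of all 9 libraries, sharing 1 estimate of the spread, were fitted with limma 3.58.1 (R 4.3.3, variance trend, term for file code). On the log2(value + 2) scale differences of low genes are understated. P-values were two-sided and Benjamini-Hochberg adjusted, with 0.05 as the threshold. The fit was checked on simulated data in which every gene had the same spread, unlike the genes here. It left most of the changed genes uncalled there. An adjusted p above the threshold therefore does not show that a gene did not differ. The planned count test was replaced because the values are not raw counts.

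Named genes were the 12 in each direction with the smallest p among those with groups that do not overlap, the same direction within both codes and a mean of at least 20; the 4 smallest p-values of each list; a set of ILC2, cytokine and calcineurin genes; and genes listed at 0 in 1 whole group. Genes named outside this rule, after their values were seen, were Lmo4, Cd69, Bcl11b, Runx3, Il2rg, Fos, Jun, Csrnp1, Dusp2, Rel, Neat1, Pim1 and Mki67. Some genes that the rule selects are not reported here. Genes and lists were chosen with earlier results of these data known. Coordinates are from GENCODE M21 (GRCm38). Alternatives varied the added value, filter, scaling, code term and libraries.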

Additional observations from a re-analysis of the deposited data

How the results depend on the processing

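Of 22 alternatives, 16 left 0 genes past the threshold. Adding 10, the values as deposited, scaling to the same sum and leaving out Rn45s each gave 1 gene, Malat1 (lower). Quantile normalization gave 1, Rn45s (higher), and robust empirical Bayes gave 3 (Gata3 and Rora lower, Psap higher). Leaving out each library in turn gave 0 to 0. Genes with groups that do not overlap numbered 256 under a filter of 50 CPM, which tests 2679 genes. Counts at an unadjusted p under 0.05 depended on single libraries: 40 higher and 357 lower without papain + FK506 replicate 3, 231 and 81 without papain + FK506 replicate 1, 50 and 122 without untreated replicate 3, 177 and 199 without papain + FK506 replicate 2, 57 and 322 without both replicate 3 libraries, and 114 and 69 without untreated replicate 3 and papain + FK506 replicate 1, the 2 libraries with the fewest genes. The last of these choices, the one before it and the removal of Rn45s were made after the data were seen. Without the code term the count was 132, and under the filters of 50 CPM and of 10 CPM in all 6 libraries it was 124 and 49, with fewer genes tested in both. Of 143 named genes, 98 kept their sign in every setting in which they could be fitted and 45 did not. Leaving out 1 of the 6 libraries compared moved the difference by over 1.5 times or turned its sign for 113 of the 143. Scaling moved the median of all genes by 0.14 on the log2 scale.

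A fit with the replicate number as a block gave 0 genes and 194 at an unadjusted p under 0.05 (smallest adjusted p 0.0572). Deviations of same-numbered libraries correlated at 0.098, 0.08 and 0.235, and untreated replicate 1 correlated best with papain + FK506 replicate 2 (0.108), so the numbers were not taken to pair the libraries. Depth in reads was not determined for the replicate 3 libraries, which limits what a listing at 0 means there.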

Other observations

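The genes below were chosen after their values were seen, and none passed the test. Srsf5, a splicing factor, was at 493, 512 and 702 CPM in untreated libraries and at 130, 231 and 273 CPM in treated ones, without overlap (difference -1.66, SE 0.63, limma adjusted p = 0.982). Aff4, a scaffold of the elongation complex, read 147, 123 and 303 CPM against 17, 37 and 55 CPM. Rbm25, a splicing regulator, read 590, 688 and 406 CPM against 76, 235 and 424 CPM, lower with treatment in the DK21069 libraries and level in the DK20129 pair. Within DK21069 its adjusted p was 0.115, as was that of Malat1. Ikzf1, the lymphoid factor Ikaros, read 179, 155 and 177 CPM against 101, 35 and 24 CPM.

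Actb, cytoplasmic actin, was at 3482, 2909 and 2023 CPM against 5178, 4308 and 5147 CPM (difference 0.64, SE 0.20, adjusted p = 0.982), and its difference was 0.22 without papain + FK506 replicate 3. S100a6, a calcium-binding protein gene, read 1292, 832 and 886 CPM against 2930, 1735 and 1483 CPM (difference 0.80, SE 0.30). Lgals1, which encodes galectin-1, stood at 282, 198 and 132 CPM against 1331, 469 and 497 CPM (difference 1.6, SE 0.59). On the deposited values the groups of these 3 genes did not overlap, but after scaling those of Actb and S100a6 did. With papain alone Actb was at 5094, 5123 and 4865 CPM. Pdcd1, the inhibitory receptor PD-1, was at 17, 20 and 86 CPM in untreated libraries and at 624, 100 and 0 CPM in treated ones. Its difference within DK21069 was 3.27 (adjusted p = 0.413), and the DK20129 pair went the other way.

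Genes listed at 0 in all 3 libraries of 1 group and at 20 CPM or more in all 3 of the other numbered 4 in each direction. Besides genes already named, these were L3mbtl2, at 30, 34 and 37 CPM in treated libraries, and Nudt6, at 21, 27 and 44 CPM in untreated ones.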
